A study of Mus musculus with 8 samples.

Results

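The 35 genes described here serve amino acid stress signalling, serine and glycine synthesis, the mitochondrial folate pathway and amino acid transport. They were taken by name from a deposited table of 31228 genes, and every name was found. Of the 35, 6 are regulators, 5 are stress effectors, 5 make or convert serine and glycine, 3 are mitochondrial folate enzymes, 8 are amino acid transporters and 8 are other amino acid enzymes. RNA came from C57BL/6 mice in 4 groups, which were 1 library of extrahepatic bile duct epithelium, 1 of pancreatic duct epithelium, 3 of organoids grown from bile duct and 3 of organoids grown from pancreatic duct. All tissue was minced and digested with collagenase IV for 20 min, after which the epithelia were lysed directly in Trizol. Organoids, hollow cultures of epithelial cells, were grown in Matrigel for 3 to 4 passages in a medium with EGF, R-spondin-1, Noggin, FGF10, B27, 1 mM N-acetylcysteine, 10 mM nicotinamide and a stable glutamine source, in which Wnt3A and Y27632 were present at the start and later withdrawn. The labels used here give no age or number of animals for any group, and do not say whether numbered organoids came from separate mice or cultures, so p-values measure only the spread between these libraries.

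The integrated stress response begins when kinases that sense amino acid shortage, misfolded protein or other stress phosphorylate the initiation factor eIF2. General translation then slows while the mRNA of the transcription factor ATF4 is translated more, so that ATF4 activity depends in large part on translation and can change without its mRNA. ATF4 pairs with C/EBP proteins and induces genes that import amino acids, make asparagine and serine, and pass the carbon of serine to folate, which feeds nucleotide synthesis in dividing cells.

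Values below are FPKM, in which reads are divided by exon length and library depth, after scaling between libraries, and differences are log2 differences of scaled FPKM + 1, which understate the change of weakly expressed genes. The culture change is the limma estimate of organoids against epithelia across all 8 libraries with the organ as a term, with Benjamini-Hochberg adjustment over 14919 genes. Each epithelium is 1 library, so this fit takes an epithelium to vary as the organoids do. Library depth, implied by the FPKM steps, ran from 12876471 to 20828215 reads. The epithelium libraries held other cells. Of 15 acinar markers all were above 0 in both epithelia and made up 5.53% (bile duct) and 12.1% (pancreatic duct) of summed FPKM there, whereas 9 to 11 were listed at 0 in each organoid. Duct markers summed to 0.689% and 0.174% in these epithelia and to between 1.85% and 3.47% in organoids. Single duct markers varied. In bile duct organoids 6 of the 13 lay at least 2-fold higher and 2 lower, beside 13.1% and 25.7% of all genes. In pancreatic duct organoids 12 lay higher and 0 lower, beside 15.7% and 24.7%. Fibroblast, smooth muscle and endothelial markers moved the same way as the acinar ones, all 7, 5 and 5 being lower in organoids. Among markers tested, 7 of 7 of leukocytes, 5 of 5 of islets and 4 of 4 of erythrocytes were also lower. So were 5 of 7 of hepatocytes and 3 of 4 of intestinal absorptive cells, beside 30% of all genes. Transcripts of the mitochondrial genome took 24.9% and 18.8% of summed FPKM in the epithelia and between 5.43% and 7.29% in organoids. The part of these cells or of the mitochondrial share in the differences was not tested, and in bulk RNA a smaller share of cells and less RNA per cell cannot be told apart.

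Across the set, 17 of the 34 members tested were higher in organoids, where 27.6% of all genes were, and 3 were lower, where 30% of all genes were. The other 14 did not pass the adjusted threshold of 0.05. The median culture change of the members was 0.65 on the log2 scale and that of all genes was -0.003. Serine and glycine genes had the highest median of the 6 roles, at 2.04, and the regulators the lowest, at -0.28. With FPKM as deposited, organoids lay about 0.27 (bile duct) and 0.30 (pancreatic duct) log2 units higher relative to epithelium than after scaling. The members called then numbered 19 higher and 2 lower, and the share of higher calls over all genes went from 47.9% to 60%. Without the bile duct epithelium 9 of 34 members (26.5%) were called higher and 3 lower, beside 21.1% and 13.1% of 12972 genes in that fit. Without the pancreatic duct epithelium 12 members (35.3%) were called higher and 1 lower, beside 18.9% and 11.8% of 12976 genes. Of the 20 called members, 10 stayed called under every alternative that tested them. These were Cebpb, Mthfd1l, Phgdh, Psat1, Sesn2, Shmt1, Shmt2, Slc7a1, Slc7a11 and Ddit3. Of these, Ddit3 was not tested with a filter at 10 FPKM.

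**Figure D1:**
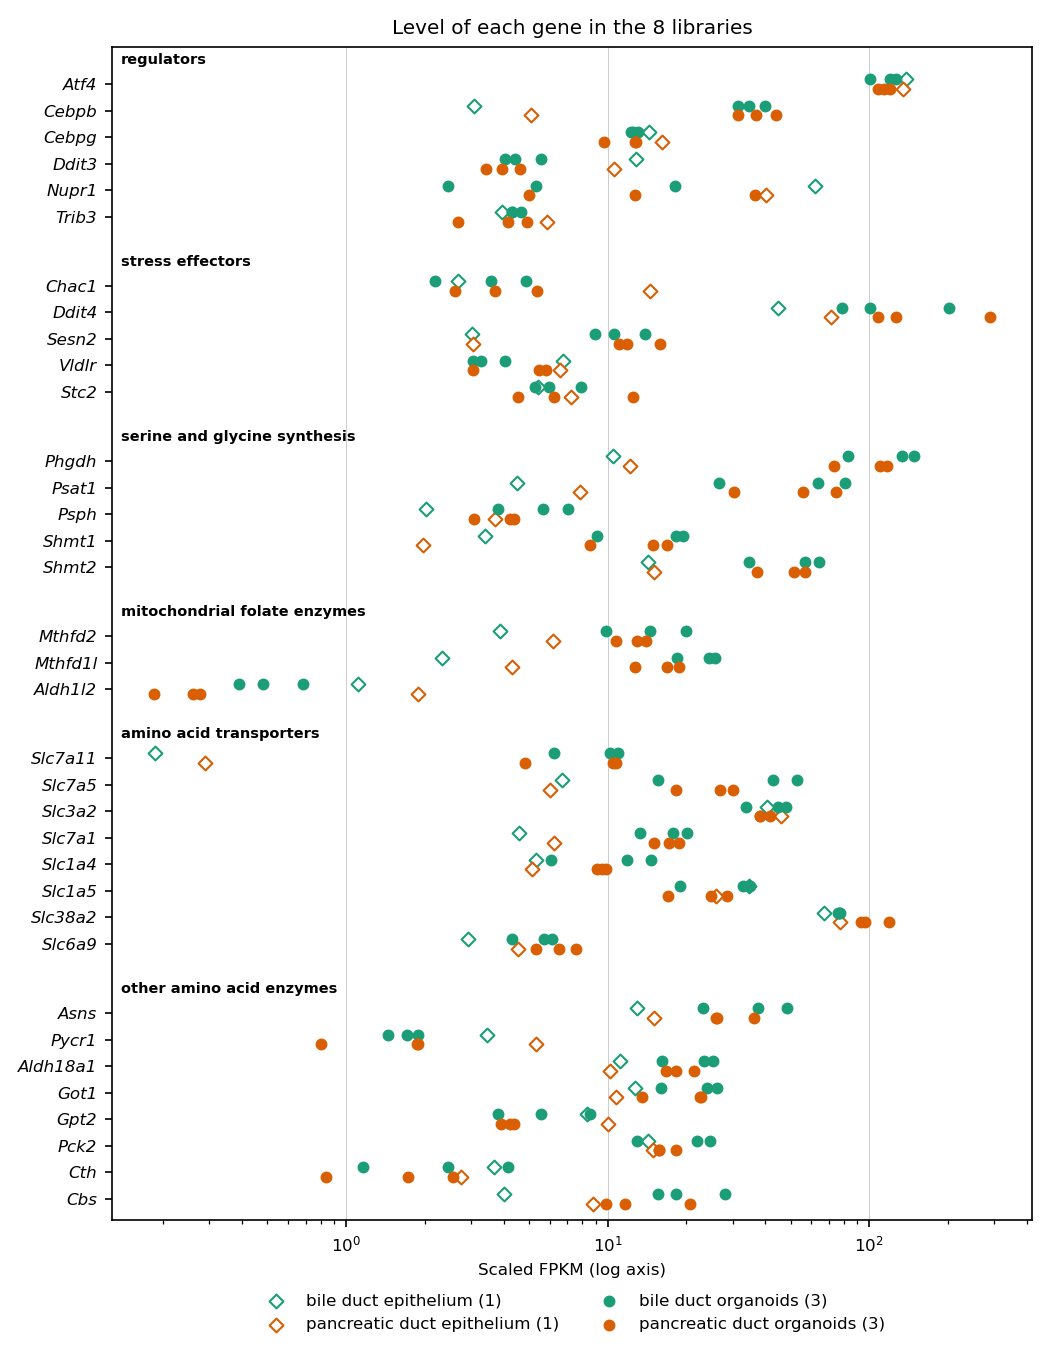
Level of each of the 35 genes in the 8 libraries, as scaled FPKM on a log axis, grouped by role. Open diamonds are the single epithelium libraries and filled circles the 3 organoid libraries of each organ; for Phgdh, Psat1, Slc7a11 and Cebpb all circles lie to the right of both diamonds.

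Taken organ by organ without a test, since each epithelium is 1 library, members were counted where the organoid mean was at least 2-fold from the epithelium on the log2(scaled FPKM + 1) scale and each of the 3 organoids differed from it in that direction. By this count 15 of 34 members lay at least 2-fold higher in bile duct organoids than in their epithelium, against 13.1% of all genes. In the same organ 2 members, Ddit3 and Nupr1, lay at least 2-fold lower, against 25.7% of genes. In the pancreatic duct 11 of 35 members lay at least 2-fold higher, against 15.7% of genes, and 6 lay at least 2-fold lower, against 24.7%. Those 6 were Ddit3, Nupr1, Chac1, Aldh1l2, Pycr1 and Gpt2, and for Nupr1 pancreatic duct organoid 2, at 36.7, was itself less than 2-fold below its epithelium at 40.4. With FPKM as deposited the pancreatic duct count was 16 higher and 3 lower, so that the share of higher members among those 2-fold apart went from 64.7% to 84.2%. Over all genes that share went from 38.8% to 49.5% in the pancreatic duct and from 33.8% to 44.5% in the bile duct.

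Of the 5 genes of serine and glycine synthesis, 4 rose in organoids, beside 27.6% of all genes, and Psph did not pass the test. Phgdh, Psat1 and Psph encode the successive enzymes that turn phosphoglycerate into serine, and Shmt1 and Shmt2 the cytosolic and mitochondrial hydroxymethyltransferases that turn serine into glycine while loading folate with its carbon. Their joint share of all FPKM was 0.00745% in the bile duct and 0.00889% in the pancreatic duct epithelium and between 0.0480% and 0.102% in the organoids.

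Phgdh (chr3:98313170-98339990 in GRCm38, minus strand), the entry enzyme of the pathway, stood at 10.4 in the epithelium of bile duct, 12.1 in that of pancreatic duct, 82.9, 149 and 134 in bile duct organoids 1 to 3 and 117, 73.3 and 110.0 in pancreatic duct organoids 1 to 3. Every organoid was above both epithelia, and the lowest was pancreatic duct organoid 2. The organoid mean was 122 ± 34.4 (SD, n = 3) for bile duct, 11.7 times its epithelium, and 100.0 ± 23.4 (SD, n = 3) for pancreatic duct, 8.24 times. The culture change was 3.15 ± 0.28 (SE) with an adjusted p of 7.91e-05 in limma. Psat1 (chr19:15904678-15947337), the aminotransferase of the next step, read 4.51 (bile duct) and 7.86 (pancreatic duct) in the epithelia, 26.7, 63.7 and 80.5 in bile duct organoids and 55.9, 30.3 and 74.4 in pancreatic duct organoids. The groups did not overlap, although the organoids themselves spanned a 3.01-fold range with bile duct organoid 1 and pancreatic duct organoid 2 lowest. Its culture change was 2.89 ± 0.48 (SE, limma adjusted p = 0.0019). Psph, the phosphatase that releases serine, was at 2.02 in bile duct epithelium and 3.80 to 7.07 in its organoids, but at 3.71 in pancreatic duct epithelium and 3.09 to 4.37 in its organoids. Its change of 0.56 ± 0.29 had a limma adjusted p of 0.136, and it was 1.07 without the pancreatic duct epithelium (adjusted p = 0.0486) but 0.027 without the bile duct epithelium (adjusted p = 0.957).

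Shmt2 (chr10:127517123-127522444), the mitochondrial enzyme, measured 14.2 and 15.1 in the bile duct and pancreatic duct epithelia, 34.6, 56.8 and 64.1 in bile duct organoids and 56.8, 37.1 and 51.6 in pancreatic duct organoids. All organoids lay above both epithelia, with bile duct organoid 1 and pancreatic duct organoid 2 lowest. Shmt1 (chr11:60788104-60811718), the cytosolic enzyme, measured 3.40 and 1.97 in those epithelia, 9.14, 19.3 and 18.3 in bile duct organoids and 14.8, 8.57 and 16.9 in pancreatic duct organoids. Bile duct organoid 1 and pancreatic duct organoid 2 were again the lowest organoids, and both stood above the epithelia. The culture changes were 1.68 ± 0.26 for Shmt2 (SE, limma adjusted p = 0.00122) and 2.04 ± 0.34 for Shmt1 (adjusted p = 0.00188). Shmt1 shares exon sequence on the opposite strand with Smcr8, Shmt2 with Ndufa4l2 and Psph with Cct6a, and since the strand setting of the counting is not given, reads of such partners cannot be told apart.

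Mitochondrial folate enzymes take the carbon of serine on to formate. Mthfd1l (chr10:3973118-4167081), which releases formate, was at 2.33 in the epithelium of bile duct, 4.31 in that of pancreatic duct, 18.3, 24.4 and 25.6 in bile duct organoids and 18.8, 12.7 and 16.9 in pancreatic duct organoids. All organoids exceeded both epithelia, and the mean ratio to epithelium was 9.77 in bile duct and 3.75 in pancreatic duct. The culture change was 2.25 ± 0.28 (SE, limma adjusted p = 0.000474) and 1.66 without the bile duct epithelium. Mthfd2, the dehydrogenase and cyclohydrolase of the preceding step, rose by 1.28 ± 0.27 (limma adjusted p = 0.006), from 3.89 and 6.18 in the epithelia to between 9.89 and 19.9. Without the bile duct epithelium its change was 0.89 with an adjusted p of 0.0994. Aldh1l2, which oxidises formyl folate in mitochondria to carbon dioxide and NADPH, went the other way at low level. It was at 1.11 and 1.88 in the bile duct and pancreatic duct epithelia and between 0.184 and 0.681 in organoids. The filter, set on FPKM as deposited, asked for 1 in at least 2 libraries, and Aldh1l2 failed it with 0.963 and 1.604 in the epithelia. With no filter its culture change was -0.85 ± 0.18 (SE, limma adjusted p = 0.00912). Aldh1l2 shares exon sequence with D10Wsu102e on the opposite strand.

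**Figure D2:**
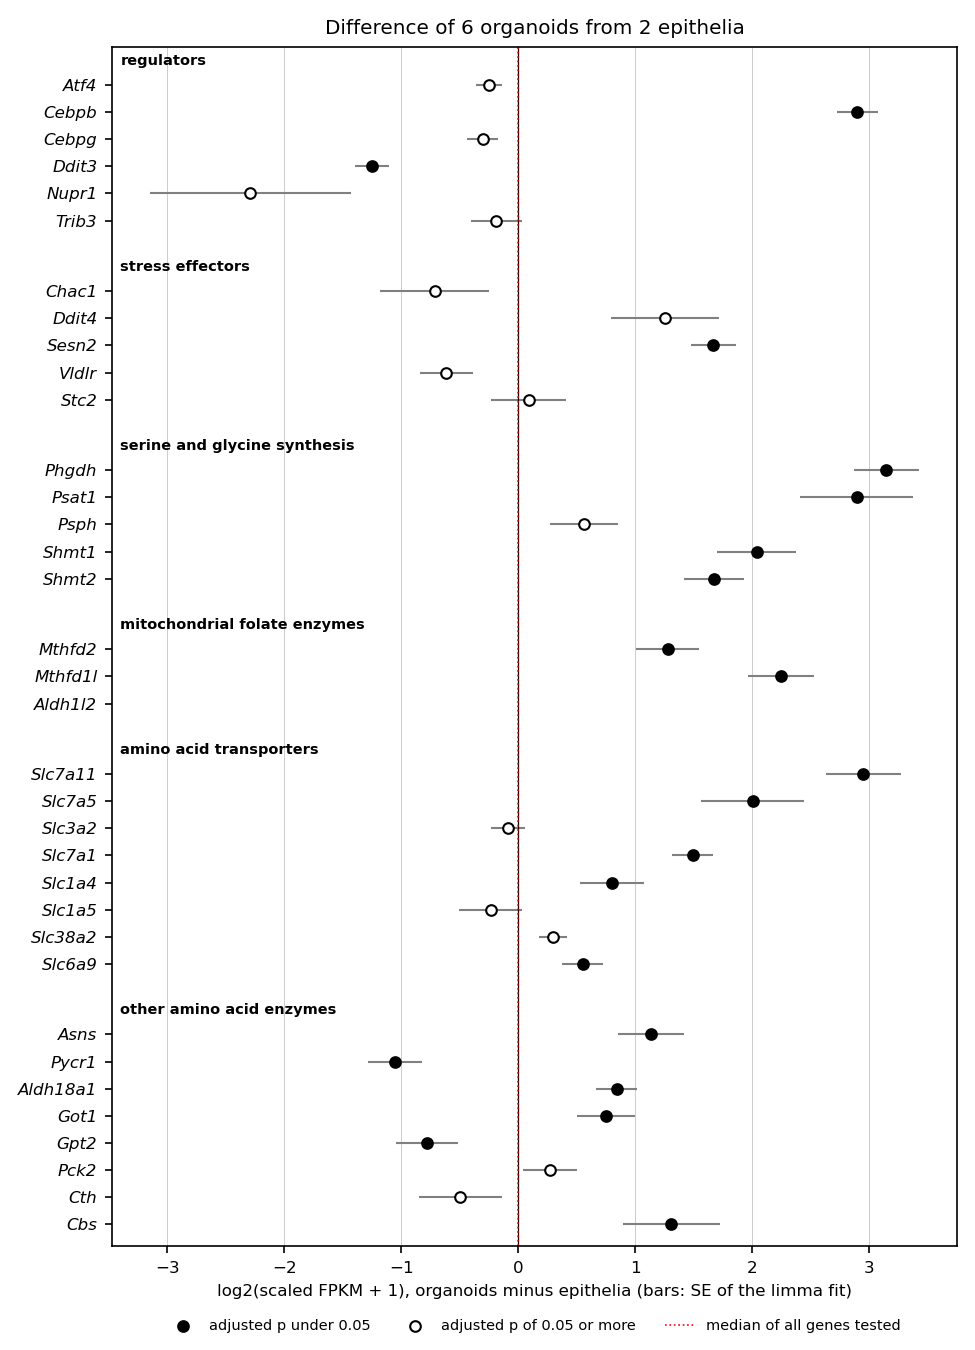
Culture change of each member, organoids minus epithelia on the log2(scaled FPKM + 1) scale, with the standard error of the limma fit as bars. Filled points had an adjusted p under 0.05; Phgdh at 3.15 lies farthest right, and the dotted line marks the median of all genes tested at -0.003. Aldh1l2 has no point because it was under the filter.

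The DNA element that ATF4 and C/EBP bind carries the core TGATGNAA, which was searched on both strands of 300 bases around each start site, 250 before and 50 after, in RefSeq promoters of build GRCm38.p6. Of 31 members with an entry, 10 held it (32.3%), against 1219 of 27025 genes with an entry (4.51%). The set was chosen to include known ATF4 targets, so a share above that of all genes follows in part from the choice. Slc7a5, Aldh1l2, Cth and Slc1a5 had no entry. Holders were 4 of 16 members that rose (25.0%), 1 of 3 that fell (33.3%) and 5 of 12 that did not pass (41.7%). None of the 5 serine and glycine genes and neither mitochondrial folate gene with an entry held it in this window. The sequences printed below, with the core in capitals, show its place and letters in genes that rose (Slc7a11, Asns, Got1), fell (Pycr1) or did not pass (Chac1); on the opposite strand the core appears as its reverse complement. A match describes letters only and is no evidence of binding.

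Among the 8 transporters 5 rose, beside 27.6% of all genes, and none fell, beside 30%, with a median of 0.68. Slc7a11 (chr3:49892526-50443614, minus strand), the exchanger that brings in cystine for glutathione synthesis, had the highest ratio of organoid to epithelium. It stood at 0.186 in the epithelium of bile duct and 0.289 in that of pancreatic duct, worth 29 and 53 reads, at 6.25, 10.95 and 10.2 in bile duct organoids and at 4.84, 10.7 and 10.4 in pancreatic duct organoids, worth 1074 to 3309 reads. Every organoid lay above both epithelia. The mean ratio was 49.1 for bile duct and 30.0 for pancreatic duct, and the culture change was 2.95 ± 0.32 (SE, limma adjusted p = 0.000232), or 4.69 with a pseudocount of 0.1 and 5.17 with voom on recovered reads. Its promoter carried 2 matches to the core, in opposite orientations, from 66 to 59 and from 47 to 40 bases before the start. The stretch printed, with flanks, spans chr3:50443623-50443709 on the minus strand.
Slc7a11: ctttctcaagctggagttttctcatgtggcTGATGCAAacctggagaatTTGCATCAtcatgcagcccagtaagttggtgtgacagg

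Slc7a5 (chr8:121881150-121907694), the light chain of the carrier for leucine and other large neutral amino acids, measured 6.71 (bile duct) and 6.01 (pancreatic duct) in the epithelia, 15.5, 42.9 and 52.9 in bile duct organoids and 26.9, 18.3 and 30.3 in pancreatic duct organoids. Organoids did not overlap the epithelia but differed among themselves 3.40-fold, with bile duct organoid 1 lowest. The change was 2.00 ± 0.44 (SE, limma adjusted p = 0.00665), and the adjusted p was 0.0722 without the bile duct and 0.0528 without the pancreatic duct epithelium. Slc3a2, the heavy chain that partners both Slc7a5 and Slc7a11 at the membrane, was at 40.5 and 45.8 in the epithelia and 33.8 to 48.2 in organoids. Its change was -0.09 ± 0.15 (limma adjusted p = 0.641), and it was 0.19 with FPKM as deposited and 0.02 without the pancreatic duct epithelium. So the light chains rose over a heavy chain whose organoid range enclosed both epithelia.

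Slc7a1 (chr5:148327410-148399904), the importer of arginine and lysine, stood at 4.59 and 6.22 in the bile duct and pancreatic duct epithelia, 13.3, 17.8 and 20.1 in bile duct organoids and 18.8, 14.99 and 17.2 in pancreatic duct organoids. All organoids exceeded both epithelia, and the change was 1.49 ± 0.18 (SE, limma adjusted p = 0.000371). Slc1a4, a carrier of alanine, serine and cysteine, rose by 0.80 ± 0.28 (limma adjusted p = 0.0407), and Slc6a9, the glycine carrier, by 0.55 ± 0.17 (limma adjusted p = 0.0302). Both calls lay near the threshold, and with fewer libraries they were lost in several cases while the direction stayed. Slc1a4 kept a change of 0.69 to 0.97 and Slc6a9 one of 0.50 to 0.61 without any 1 organoid. For Slc1a4 the adjusted p lay between 0.0609 and 0.0745 without bile duct organoid 2 or any 1 of the pancreatic duct organoids, and it was 0.202 and 0.182 without the bile duct and pancreatic duct epithelium. For Slc6a9 it lay between 0.0508 and 0.0591 without bile duct organoid 2 or 3 or pancreatic duct organoid 1 or 2, and it was 0.256 and 0.0859 without those epithelia. Slc6a9 shares exon sequence with B4galt2, Ccdc24 and Gm17114 on the opposite strand. Slc38a2, a carrier of small neutral amino acids, had a change of 0.29 ± 0.12 (limma adjusted p = 0.0732), or 0.57 with FPKM as deposited (adjusted p = 0.0105). Slc1a5, the main glutamine importer, had -0.24 ± 0.27 (limma adjusted p = 0.482), with 0.04 as deposited.

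The remaining 8 enzymes make asparagine or proline, move amino groups, or belong to transsulfuration and gluconeogenesis. In this role 4 of 8 rose, beside 27.6% of all genes, and 2 fell, beside 30%, with a median of 0.51. Asns, which makes asparagine from aspartate and glutamine and is a textbook ATF4 target, rose by 1.13 ± 0.28 (limma adjusted p = 0.0116), from 13.0 and 15.1 in the epithelia to 23.0, 37.4 and 48.4 in bile duct organoids and 36.3, 26.03 and 26.2 in pancreatic duct organoids. Every organoid exceeded both epithelia, but the adjusted p was 0.139 without the bile duct and 0.0509 without the pancreatic duct epithelium. Got1, the cytosolic aspartate aminotransferase, rose by 0.75 ± 0.25 (limma adjusted p = 0.0363). That call was lost, with adjusted p between 0.0633 and 0.0678, without bile duct organoid 2 or 3 or pancreatic duct organoid 1 or 3, and it was 0.167 and 0.203 without the bile duct and pancreatic duct epithelium. Cbs, the entry enzyme of transsulfuration, rose by 1.31 ± 0.42 (limma adjusted p = 0.031), from 4.03 to between 15.5 and 27.98 in bile duct but from 8.78 to between 9.86 and 20.6 in pancreatic duct. Its change was 0.53 without the bile duct epithelium (adjusted p = 0.397), 2.05 without the pancreatic duct epithelium, and 1.21 without pancreatic duct organoid 2 (adjusted p = 0.0534).

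Aldh18a1, the mitochondrial enzyme that commits glutamate to proline, rose by 0.84 ± 0.18 (limma adjusted p = 0.00577), from 11.1 and 10.2 in the epithelia to between 16.1 and 25.2. Its adjusted p was 0.067 without the bile duct and 0.0584 without the pancreatic duct epithelium. Pycr1, the mitochondrial reductase of the last step, fell by 1.05 ± 0.23 (limma adjusted p = 0.00702), from 3.47 and 5.34 to between 0.804 and 1.88, with all organoids below both epithelia. Without the pancreatic duct epithelium the change was -0.76 with an adjusted p of 0.119. Gpt2, the mitochondrial alanine aminotransferase, fell by 0.78 ± 0.27 (limma adjusted p = 0.0388), although bile duct organoid 2 at 8.57 was above its epithelium at 8.33. That call was lost, with adjusted p between 0.0631 and 0.072, without bile duct organoid 3 or any 1 of the pancreatic duct organoids, and it was 0.054 and 0.328 without the bile duct and pancreatic duct epithelium and 0.14 with FPKM as deposited. Pck2, the mitochondrial carboxykinase, had a change of 0.27 ± 0.23 (adjusted p = 0.338) and Cth, which releases cysteine from cystathionine, one of -0.49 ± 0.36 (adjusted p = 0.271).

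The ATF4 and C/EBP core lay from 23 to 16 bases before the start of Asns, 102 to 95 before that of Got1 and 103 to 96 before that of Pycr1, so a match to this core stood before genes that rose and before a gene that fell. These distances count from the RefSeq start. The stretches printed, all on the minus strand, span chr6:7693214-7693243 (Asns), chr19:43524670-43524737 (Got1) and chr11:120643814-120643881 (Pycr1). By the deposited coordinates Asns begins further upstream, at chr6:7693254, so its stretch lies inside the gene and was given flanks of only 11 bases.
Asns: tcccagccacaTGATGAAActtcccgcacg
Got1: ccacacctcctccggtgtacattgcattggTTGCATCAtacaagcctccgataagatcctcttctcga
Pycr1: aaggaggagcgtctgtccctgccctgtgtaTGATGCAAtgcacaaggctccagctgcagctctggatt

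Of the 6 regulators 1 rose, 1 fell and 4 did not pass, where 27.6% of all genes rose and 30% fell. Atf4 itself, whose mRNA is translated more under stress, was abundant everywhere, at 138 and 135 in the epithelia and 100.5 to 127 in organoids. Its change of -0.25 ± 0.11 had a limma adjusted p of 0.098 and was 0.03 with FPKM as deposited. Cebpb (chr2:167688915-167690418), a C/EBP partner of ATF4 that also acts in inflammation and growth, was the only regulator that rose. It measured 3.08 (bile duct) and 5.09 (pancreatic duct) in the epithelia, 39.999, 34.8 and 31.6 in bile duct organoids and 31.5, 43.9 and 37.0 in pancreatic duct organoids. All organoids lay above both epithelia and within 1.40-fold of each other. Mean ratios were 11.5 and 7.35, and the change was 2.90 ± 0.17 (SE, limma adjusted p = 1.08e-05). Cebpb overlaps exons of Tmem189 on the opposite strand.

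Ddit3 (chr10:127290774-127296288), which encodes the stress factor CHOP, was the only regulator that fell. It stood at 12.8 in the epithelium of bile duct, 10.5 in that of pancreatic duct, 4.05, 5.56 and 4.42 in bile duct organoids and 3.44, 4.62 and 3.95 in pancreatic duct organoids. All organoids were below both epithelia, and the change was -1.25 ± 0.15 (SE, limma adjusted p = 0.000331). Its exons overlap another protein-coding gene entry, also named Ddit3, on the same strand. They also overlap Mars, which rose by 1.64, and Gm4189 on the opposite strand. The part of these entries in the reads of Ddit3 was not tested. Cebpg, another C/EBP partner, had -0.31 ± 0.13 (limma adjusted p = 0.0843), or -0.039 with FPKM as deposited (adjusted p = 0.799). Trib3, a pseudokinase that binds ATF4, had -0.19 ± 0.22 (limma adjusted p = 0.488), with 0.045 as deposited and 0.12 without the pancreatic duct epithelium.

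Nupr1, a small stress-induced nuclear protein, was at 62.1 and 40.4 in the bile duct and pancreatic duct epithelia, 18.1, 2.45 and 5.34 in bile duct organoids and 5.01, 36.7 and 12.7 in pancreatic duct organoids. The organoids spanned a 14.9-fold range, the widest of the 35 genes, with pancreatic duct organoid 2 and bile duct organoid 1 highest. Its change of -2.29 ± 0.86 had a limma adjusted p of 0.0545. It was -2.55 without bile duct organoid 1 (adjusted p = 0.0367), -2.66 without pancreatic duct organoid 2 (adjusted p = 0.0197), -1.53 without the bile duct epithelium (adjusted p = 0.361) and -3.10 without the pancreatic duct epithelium (adjusted p = 0.0985).

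Among the 5 stress effectors 1 rose and none fell, beside 27.6% and 30% of all genes, so the count of risers was near the background. Their median was 0.09. Sesn2 (chr4:132492032-132510501), a leucine-binding inhibitor of mTORC1 signalling, measured 3.03 (bile duct) and 3.06 (pancreatic duct) in the epithelia, 8.94, 10.6 and 13.9 in bile duct organoids and 15.9, 11.1 and 11.9 in pancreatic duct organoids. The epithelia were nearly equal and all organoids lay above them. Its change was 1.67 ± 0.19 (SE, limma adjusted p = 0.000336). Ddit4, another mTORC1 inhibitor, was at 44.9 and 71.2 in those epithelia and between 78.4 and 289.8 in organoids. Its change of 1.25 ± 0.46 had a limma adjusted p of 0.0525, and the p was 0.0464 without bile duct organoid 2, 0.0431 without pancreatic duct organoid 3, and 0.252 and 0.187 without the bile duct and pancreatic duct epithelium. With FPKM as deposited the change was 1.53 (adjusted p = 0.0181). Vldlr, a lipoprotein receptor, had -0.61 ± 0.23 with a limma adjusted p of 0.052. It was called lower with median of ratios scaling (adjusted p = 0.0412) and with voom (adjusted p = 0.0474). The p was 0.0465 and 0.0365 without pancreatic duct organoid 2 and 3, and 0.319 and 0.1 without the bile duct and pancreatic duct epithelium, and the change was -0.37 with FPKM as deposited (adjusted p = 0.217). Stc2, a secreted glycoprotein, had 0.09 ± 0.32 (adjusted p = 0.832), with -0.08 without pancreatic duct organoid 3 and -0.04 without the bile duct epithelium.

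Chac1 (chr2:119351229-119354381), which degrades glutathione, was the member with at least a 2-fold difference between the epithelia. It stood at 2.67 in the epithelium of bile duct and 14.5 in that of pancreatic duct, at 2.19, 3.59 and 4.87 in bile duct organoids and at 3.71, 5.38 and 2.60 in pancreatic duct organoids. The pancreatic duct epithelium was apart from the other 7 libraries, which overlapped. The epithelia differed by -2.07 log2 units, bile duct minus pancreatic duct. Of 34 members 1 was at least 2-fold higher in the pancreatic duct epithelium, against 4.64% of all genes, and 0 in that of bile duct, against 9.08%, with 1 library a side and no test. The culture change of Chac1 was -0.72 ± 0.47 (limma adjusted p = 0.225). It was -1.72 without the bile duct epithelium (adjusted p = 0.0234) and 0.25 without the pancreatic duct epithelium (adjusted p = 0.678). Its promoter holds the core on the opposite strand, from 193 to 186 bases before the start. The stretch printed spans chr2:119351019-119351086 on the plus strand.
Chac1: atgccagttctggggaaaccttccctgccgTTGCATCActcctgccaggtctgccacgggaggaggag

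The fit that asks whether the culture change differs between organs called 0 of 34 members, where 7.67% of all genes were called. At an unadjusted p under 0.05 it found 2 of 34 members, where 15.9% of genes were. These were Chac1, whose change was 1.96 ± 0.63 log2 units higher in bile duct (limma adjusted p = 0.209), and Mthfd1l, whose change was 1.15 ± 0.39 higher in bile duct (limma adjusted p = 0.237). With no filter on low values Aldh1l2 was called, its fall being 0.74 smaller in bile duct (adjusted p = 0.0411). The spread in this fit comes from the organoids alone, and each epithelium is taken to vary as they do.

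Between bile duct and pancreatic duct organoids no member passed the test. limma called 0 of 34 members and 0% of 12106 genes, with a smallest adjusted p of 1. At an unadjusted p under 0.05 there were 2 members, where 2.52% of genes were. Both had a limma adjusted p of 1. Mthfd1l was 0.48 log2 units higher in bile duct organoids and Slc38a2 0.40 lower, with unadjusted limma values of 0.0434 and 0.0177. On recovered read numbers limma with voom called 0 members, with 1 at an unadjusted p under 0.05, beside 241 of 10291 genes. Among the 34 members tested, Slc38a2 was the only 1 whose groups did not overlap, at 76.1, 77.2 and 76.3 in bile duct organoids and 96.3, 92.7 and 119 in pancreatic duct organoids. Values of 6.75% of all genes did not overlap between these groups. Aldh1l2, under the filter and not tested, did not overlap either, at 0.388, 0.479 and 0.681 in bile duct organoids and 0.184, 0.260 and 0.275 in pancreatic duct organoids. Both were singled out here after their values were seen. Without pancreatic duct organoid 3, 11 genes were called over the whole table and no member. Without bile duct organoid 1, 9 of 34 members (26.5%) had an unadjusted p under 0.05, beside 1018 of 11924 genes (8.54%), and none was called. Leaving out any other 1 organoid gave 0 to 3 members at that level, beside 159 to 427 of 11844 to 11920 genes. Bile duct organoid 1 was itself the lowest organoid for 16 of the 34 members.

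Within the organoids, single libraries took the lowest or highest place for many members. Bile duct organoid 1 was the lowest of the 6 organoids for 16 of 34 members (47.1%, against 18.7% of all genes) and the highest for none. Bile duct organoid 3 was the highest for 17 members (50%, against 17.8% of genes). Bile duct organoid 1 and pancreatic duct organoid 2 were the lowest pair for 16 members (47.1%, against 20.6% of genes). For the serine and glycine genes the median deviation from the organoid mean was -0.49 in bile duct organoid 1 and -0.55 in pancreatic duct organoid 2, and between 0.07 and 0.38 in the other 4. The 15 proliferation genes stood in a like order, with median deviations of -0.22 and -0.72 in those libraries and 0.14 to 0.42 in the others, and 14 of the 15 had that pair lowest. The part of proliferation in the serine gene levels was not tested. Nupr1 and Ddit4 stood in the opposite order, with pancreatic duct organoid 2 and bile duct organoid 1 the highest organoids.

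**Figure D3:**
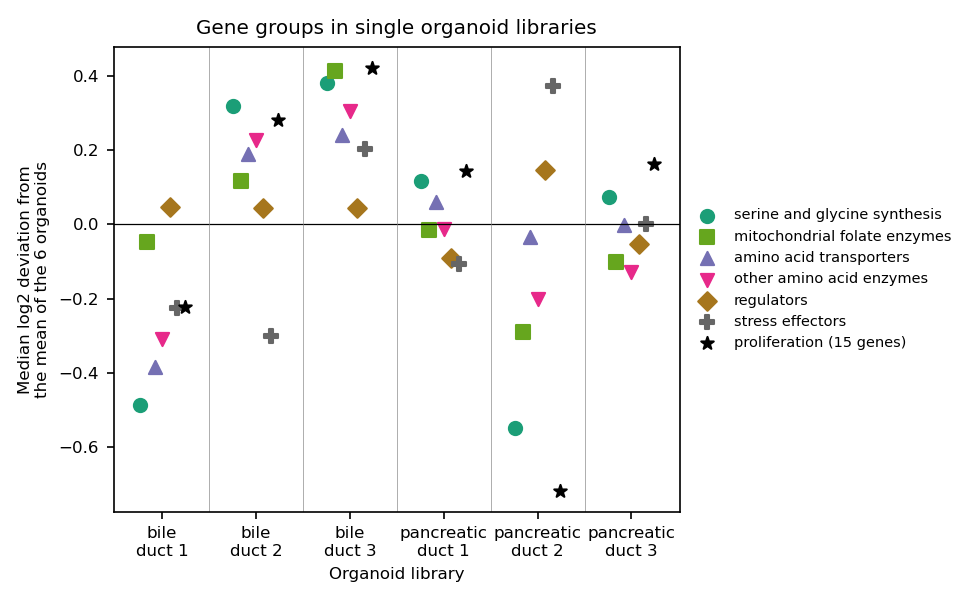
Median log2 deviation of each gene group from the mean of the 6 organoids, by organoid library. Serine and glycine genes (circles) and proliferation genes (stars) are below 0 in bile duct organoid 1 and pancreatic duct organoid 2 and above 0 in the other 4 libraries.

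Related gene lists outside the set are read against the same background, 27.6% of all genes higher and 30% lower. Of 20 cytosolic aminoacyl-tRNA synthetases, which charge tRNA and include known ATF4 targets, 19 rose and 1 fell, with a median of 1.01. Mars rose by 1.64 ± 0.16 (limma adjusted p = 0.000146), Nars by 1.599 ± 0.13 (5.88e-05) and Cars by 1.53 ± 0.15 (0.000153), while Wars fell by 0.77 ± 0.26 (0.0409). Of 20 other genes of the integrated stress response 9 rose and 5 fell, with a median of 0.40. Risers included Gcn1l1, a co-activator of the amino acid sensor GCN2, by 1.52 ± 0.11 (adjusted p = 2.73e-05), the eIF2B subunit Eif2b5 by 1.25 ± 0.14 (0.000241) and the secreted stress signal Gdf15 by 1.11 ± 0.32 (0.0219). Atf3, an early stress transcription factor, fell by 5.26 ± 0.67 (limma adjusted p = 0.000508), from 187 and 234 in the epithelia to between 1.93 and 12.4. Ppp1r15a, which reverses eIF2 phosphorylation, fell by 3.16 ± 0.13 (1.54e-06), from 47.6 and 72.1 to between 4.88 and 7.14. Sesn1, a relative of Sesn2, fell by 2.53 ± 0.15 (1.08e-05). Atf3 and Ppp1r15a thus had the direction of Ddit3 and not that of the serine genes.

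In the folate, glycine and methionine cycles outside the set, 7 of 17 genes rose and 3 fell, with a median of 0.44. Cytosolic Mthfd1 rose by 1.87 ± 0.33 (limma adjusted p = 0.00253) and Ahcy, which clears adenosylhomocysteine, by 1.42 ± 0.51 (0.0459). Mat1a, the liver form of the adenosylmethionine synthetase, fell by 1.18 ± 0.22 (0.00295) and Slc25a32, the mitochondrial folate carrier, fell by 0.80 ± 0.10 (0.000491). Of 15 other amino acid transporters 5 rose, near the 27.6% of all genes, and 9 fell, beside 30%, with a median of -0.78. The taurine carrier Slc6a6 rose by 1.89 ± 0.14 (limma adjusted p = 3.01e-05), the cationic and neutral amino acid exchanger Slc7a6 by 1.75 ± 0.15 (8.42e-05) and the glutamine carrier Slc38a1 by 1.63 ± 0.25 (0.00129). Among carriers of neutral amino acids, Slc38a4 fell by 3.76 ± 0.11 (2.73e-07), Slc7a8 fell by 3.31 ± 0.15 (2.99e-06) and Slc43a1 fell by 1.58 ± 0.14 (7.73e-05). Of 19 other amino acid enzymes 8 rose and 7 fell, with a median of 0.08. The subunits of the enzyme that starts glutathione synthesis, Gclc and Gclm, rose by 1.90 ± 0.40 and 1.52 ± 0.22 (limma adjusted p = 0.00564 and 0.000883), beside the cystine importer Slc7a11, and Asl of the urea cycle by 1.43 ± 0.09 (1.08e-05). Glutamine synthetase Glul fell by 4.65 ± 0.60 (0.000563), ornithine aminotransferase Oat by 1.97 ± 0.13 (1.49e-05) and the cytosolic alanine aminotransferase Gpt by 1.63 ± 0.24 (0.000949). All 15 proliferation genes rose, with a median of 2.60.

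**Figure D4:**
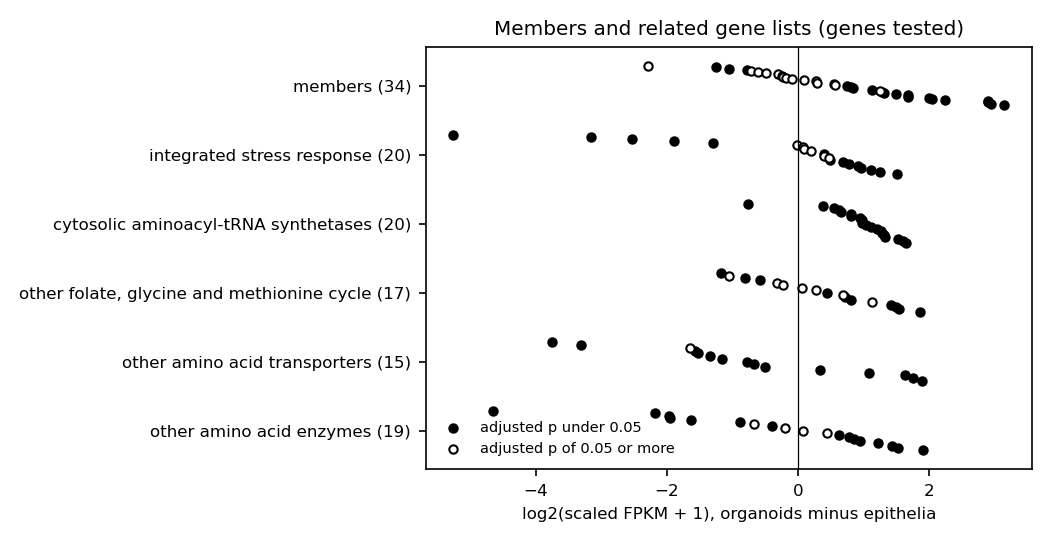
Culture change of each tested gene in the members and in 5 related gene lists, as the limma estimate on the log2(scaled FPKM + 1) scale, organoids minus epithelia. Filled points had an adjusted p under 0.05; 19 of the 20 tRNA synthetases lie above 0, while the other amino acid transporters have a median of -0.78.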

How the data were processed

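The authors deposited 1 table of FPKM with 8 library columns and 31228 genes; the unit is not named in its header and was read from its values. All 8 per-sample columns were used, so 0 were left aside. Libraries were made with NEBNext Ultra from poly-T selected RNA, per the labels' protocols, and Bowtie2 2.2.3, TopHat2, HISAT2 2.1.0 and HTSeq 0.6.0 are named without role or order per the submitters' processing notes. The genome build and strand setting are not given in the sources used here, and 28619 genes had the same coordinates as in GENCODE M21 (GRCm38). FPKM times exon length was a whole number of reads, within 0.05, in all libraries for 28309 genes (90.7%), which gave the implied depths and the read numbers for limma's voom. Atf4, Pck2, Cbs and Slc38a2 did not come out whole in every library and were left out of voom.

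FPKM were scaled by a trimmed mean of log ratios (30% of ratios and 5% of levels trimmed, over genes with at least 1 FPKM in some library), and log2(FPKM + 1) was tested with limma 3.58.1 with a trend in R 4.3.3, with Benjamini-Hochberg adjustment and a threshold of 0.05. Filters used FPKM as deposited. For fits with epithelia a gene needed 1 FPKM in at least 2 libraries, for the organoid groups in at least 3. The script was tested on simulated data. Counts of genes 2-fold apart used the organoid mean, required all 3 organoids on the same side of the epithelium, and kept genes with 1 FPKM in the epithelium or the organoid mean. Members and lists were chosen with earlier results of these data known. Values in every library are given for members that passed the culture change with a 2-fold change in both organs, differed 2-fold between epithelia, or passed another test, and for some others beside a result; of each related list up to 3 genes a direction were named by the smaller change of both organs. Some genes that met this rule are not reported here. Alternatives were other scaling, pseudocount and filters, voom, a replicate block and leaving out each library. Python 3.11.15, pandas 2.3.3, numpy 2.4.6 and matplotlib 3.10.9 were used. Replicate numbers come from the sample titles.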

Additional observations from a re-analysis of the deposited data

Results flagged for a closer look

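For Trib3, the pseudokinase that binds ATF4, the change from epithelium to organoid had opposite signs in the organs. Bile duct organoids stood at 4.29, 4.66 and 4.32 scaled FPKM, all above their epithelium at 3.94, and pancreatic duct organoids at 4.16, 4.91 and 2.69, all below theirs at 5.85. The change was 0.64 ± 0.38 (SE) log2 units higher in bile duct, and this difference did not pass the limma test (adjusted p = 0.585). The spread in that fit comes from the organoids alone. Each epithelium was 1 library.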

How the results depend on the processing

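Over the alternatives, 98 recomputed counts stayed within 1.5 times their reported value and 8 did not, and of single-member culture changes 397 kept direction and side of the threshold, 15 gained a call, 41 lost one and 9 changed sign. Leaving out each organoid in turn gave 14 to 17 members higher and 2 to 4 lower in the culture change, 14 to 16 higher and 2 lower at 2-fold in bile duct, 11 to 13 higher and 5 to 6 lower in pancreatic duct, and 0 called between organoid groups or for the organ difference. The culture change called 9 members higher without the bile duct epithelium. It called 1 lower without the pancreatic duct epithelium, 5 lower with voom, and 0 lower with a filter at 10 FPKM, under which Ddit3, Pycr1 and Gpt2 were not tested. Pancreatic duct organoids had 3 members 2-fold lower with FPKM as deposited and 2 with the filter at 10 FPKM. The share of all genes called lower with voom or with that filter was not computed, so those counts have no background beside them. A pseudocount of 0.1 gave 2 members higher in pancreatic duct epithelium, and no filter gave 1 member for the organ difference. Signs changed with FPKM as deposited for Atf4 (0.034), Trib3 (0.045), Slc3a2 (0.19) and Slc1a5 (0.039). They changed without the pancreatic duct epithelium for Trib3 (0.12), Chac1 (0.25) and Slc3a2 (0.022), without pancreatic duct organoid 3 for Stc2 (-0.076, where leaving out single organoids gave up to 0.22) and without the bile duct epithelium for Stc2 (-0.036). None of these 9 values passed the test. Besides single libraries, voom ended the calls of Slc1a4, Slc6a9 and Got1, and no filter those of Slc1a4, Got1 and Gpt2. Calls were gained with voom for Ddit4, Vldlr and Nupr1 and with median of ratios scaling for Vldlr. FPKM as deposited added Ddit4 and Slc38a2 and ended the call of Gpt2, and the filter at 10 FPKM added Ddit4. Apart from tests of fewer genes or samples, the cause was not tested.

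Organoids with the same replicate number had deviations correlated at -0.11, -0.44 and 0.48, and those with unlike numbers at -0.60 to 0.65. With 3 organoids a group, these values cannot decide whether libraries with the same number share an origin. A replicate block called 0 members between organoid groups, with 284 genes in place of 305 at an unadjusted limma p under 0.05.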
